A study of Mus musculus with 12 samples.

Results

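The 10 genes described here encode the 7 insulin-like growth factor binding proteins (Igfbp1 to Igfbp7), the growth factor Igf1 and the receptors Igf1r and Insr. They were taken by name from the expression table of the study, and each of the 10 names matched 1 row of the 26190 genes in it. The study dissected E11.5 embryonic mouse hearts (E11.5H) to atria and ventricles, and heart organoids (HOs) cultured for 13 days to atrium-like and ventricle-like parts. Each of the 4 groups held 3 RNA-seq libraries, 12 in all, and all samples were labelled as strain C57BL/6. No library carried a deletion or a transgene by its labels. HOs were grown from embryoid bodies of mouse embryonic stem cells on a laminin and entactin complex with FGF4. Their medium was serum-free and contained insulin, transferrin, progesterone and estradiol, and BMP4, BIO and LIF were added for the later part of the culture. The methods name several stem cell lines for HOs, derived from C57BL/6 or from an F1 hybrid, and the labels do not say which line gave which library. The HO replicates were described as biological triplicates. For the embryonic chambers the sources used here do not say how many hearts went into a library, so p-values measure the spread between these libraries.

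Insulin-like growth factors are small secreted relatives of insulin. They signal through Igf1r, and insulin through Insr, and these receptors also form hybrids and share the chain of Irs adaptors, PI3-kinase and Akt. Igfbp1 to Igfbp6 bind the growth factors outside the cell with high affinity and hold them away from the receptor or carry them to it, whereas Igfbp7 binds them weakly and is a matrix and vessel protein. In the embryonic heart, insulin-like growth factors from the epicardium and endocardium are known to drive the division of cardiomyocytes, and Igf2 is the main ligand before birth. Igfbp1 is best known as a liver protein whose gene is switched off by insulin.

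The binding protein genes lie in pairs on the GRCm38 build. On chromosome 11, Igfbp1 (7197787 to 7202546, plus strand) and Igfbp3 (7206091 to 7213923, minus strand) ended 3544 bases apart, and no other annotated gene lay between them. On chromosome 1, Igfbp2 (72824480 to 72852471, plus strand) and Igfbp5 (72858065 to 72874865, minus strand) ended 5593 bases apart, again with no gene between. Igfbp4 lies on chromosome 11 (99041244 to 99052655), Igfbp6 on chromosome 15 (102144186 to 102149512) and Igfbp7 on chromosome 5 (77349240 to 77408045). Igf1 lies on chromosome 10 (87858265 to 87937047), Igf1r on chromosome 7 (67952257 to 68233667) and Insr on chromosome 8 (3150922 to 3279617). Of these 10 genes only Igfbp7 overlapped another annotated gene, Polr2b on the opposite strand, and the strand setting of the counting is not given in the sources used here.

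The 250 bases before the start site are shown for both genes of the chromosome 11 pair, which ran in opposite directions across HO libraries, and for Igfbp5 and Igfbp7, which differed in opposite directions between the embryonic chambers. They are RefSeq sequences of GRCm38.p6 at chr11:7197537-7197786 (plus strand), chr11:7213924-7214173 (minus), chr1:72874866-72875115 (minus) and chr5:77408046-77408295 (minus), in that order. Capitals mark matches, on either strand, to the motif CAAAACA, to the motif GTTAAT, or to the motif GGGCGG.
Igfbp1: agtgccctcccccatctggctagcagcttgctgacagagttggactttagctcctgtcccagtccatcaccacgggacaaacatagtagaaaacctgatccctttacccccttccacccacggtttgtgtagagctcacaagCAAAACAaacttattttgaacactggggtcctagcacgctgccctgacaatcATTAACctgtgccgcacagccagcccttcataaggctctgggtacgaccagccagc
Igfbp3: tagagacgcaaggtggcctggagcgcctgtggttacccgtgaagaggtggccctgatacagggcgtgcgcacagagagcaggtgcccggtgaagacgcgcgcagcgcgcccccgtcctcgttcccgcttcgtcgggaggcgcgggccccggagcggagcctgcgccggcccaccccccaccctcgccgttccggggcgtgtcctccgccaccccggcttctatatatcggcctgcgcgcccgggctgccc
Igfbp5: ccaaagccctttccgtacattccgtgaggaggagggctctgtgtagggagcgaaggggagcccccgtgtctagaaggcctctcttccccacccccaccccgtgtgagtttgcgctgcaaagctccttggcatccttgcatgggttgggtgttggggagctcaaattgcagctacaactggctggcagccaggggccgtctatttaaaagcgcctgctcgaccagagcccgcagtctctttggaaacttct
Igfbp7: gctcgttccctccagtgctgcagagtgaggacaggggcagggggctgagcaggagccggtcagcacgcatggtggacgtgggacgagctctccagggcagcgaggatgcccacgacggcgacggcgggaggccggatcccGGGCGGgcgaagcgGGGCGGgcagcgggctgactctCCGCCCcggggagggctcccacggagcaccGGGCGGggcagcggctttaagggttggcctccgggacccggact
CAAAACA is the core of the insulin response element, GTTAAT a half-site of the liver factor HNF1, and GGGCGG the GC box. TATAAA, a form of the TATA box, was searched as well and had no match in these 4 windows. Other forms of the TATA box were not searched. Promoter windows were found for 9 of the 10 genes (Insr had none). Among the members with a window, Igfbp1 alone matched CAAAACA, 108 to 102 bases before its start, and GTTAAT, 56 to 51 bases before it. Of 32851 RefSeq promoter windows of the same length, 5.56% held the first and 6.43% the second. Igfbp7 had 4 GC boxes, Igfbp2 had 3 at 1 of its 2 start sites and Igf1r had 2, and 32.7% of all windows held at least 1. TATAAA matched in Igfbp4 and Igfbp6, against 12.4% of all windows. The Igfbp1 window held 5 CpG and that of its neighbour Igfbp3 held 32, where the median of all windows was 6. Igf1r had the most among the members, 42, more than 99.1% of all windows. A match is a description of these letters and not a measured binding site.

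The libraries held 23971258 to 30540993 counted fragments, and a count of 0 in a library allowed a level of up to 0.0982 to 0.125 CPM (3 fragments, covering counting error only). Levels are given as deposited FPKM (fragment numbers scaled by transcript length and by library depth), in the order of replicates 1, 2 and 3. Embryonic libraries of a group were close to each other and HO libraries were not: the common coefficient of biological variation in edgeR was 0.211 between embryonic chambers and 0.677 between HO parts. Heart markers were lower in HOs. A list of 16 cardiomyocyte genes averaged 9.99 to 10.6 across embryonic libraries and 5.42 to 8.87 across HO libraries, as mean log2(CPM + 1). A list of 12 hepatocyte and visceral endoderm genes stood at 0.399 to 0.853 in E11.5H. In HOs it stood at 9.25, 5.29 and 8.91 in atrium-like parts and at 3.92, 1.42 and 8.33 in ventricle-like parts. Atrium-like 1, atrium-like 3 and ventricle-like 3 stood apart from the other 3 HO libraries, and results that rest on them are given with each library shown. In bulk RNA, fewer cells of a type and less RNA per cell cannot be told apart.

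Igf1, the ligand, had nearly the same level in all 6 embryonic libraries and either a higher or a lower one in each HO library. Its level was 8.27, 7.97 and 10.1 FPKM in atria and 8.43, 7.69 and 7.04 FPKM in ventricles of E11.5H. In atrium-like parts it was 1.63, 18.7 and 1.69 FPKM, and in ventricle-like parts 12.3, 14.5 and 1.31 FPKM. Atrium-like 2, ventricle-like 1 and ventricle-like 2 thus lay above every embryonic library, and the other 3 HO libraries lay below every one. The group means were 8.78 ± 1.15 (SD, n = 3), 7.72 ± 0.693, 7.35 ± 9.85 and 9.34 ± 7.04 FPKM in the order above, and neighbours in the order of means overlapped. Atrium-like parts differed from atria by a log2 fold change of -0.21 (95% interval -2.35 to 1.93), and ventricle-like parts from ventricles by 0.18 (-1.64 to 1.997), so shifts of up to these bounds in either direction were not excluded. Atrium-like 2 decided the first of these values, which fell to -2.15 (adjusted p = 0.00081 in edgeR) when it was left out.

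Igf2, the fetal ligand and not one of the 10 genes, was the more abundant ligand in every library. Embryonic libraries held 350 to 412 FPKM of it, and HO libraries 177 to 372 FPKM. The ratio of Igf2 to Igf1 in FPKM was 40.6 to 49.8 in the embryonic libraries. In HOs it was 144, 9.72 and 221 in atrium-like parts and 14.5, 12.3 and 173 in ventricle-like parts. The HO ratios lay on both sides of the embryonic range, and the 3 high ratios belonged to the libraries with low Igf1.

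Igf1r, the receptor that transmits the growth signal, was lower in every HO library than in any embryonic one. It was 5.49, 5.83 and 5.42 FPKM in atria, 5.79, 5.71 and 5.20 FPKM in ventricles, 0.814, 2.66 and 4.24 FPKM in atrium-like parts and 1.74, 2.74 and 3.50 FPKM in ventricle-like parts. The atria and ventricles did not differ beyond their spread, and neither did the HO parts. Between ventricle-like parts and ventricles the log2 fold change was -1.16 (SE 0.249, adjusted p = 0.0194 in edgeR), and between atrium-like parts and atria it was -0.98 (SE 0.502, adjusted p = 0.181). The cardiomyocyte list itself was called lower for 15 of 16 genes in atrium-like and 12 of 16 in ventricle-like parts, and its part in the Igf1r level was not tested. With libraries scaled to these genes both values turned positive, to 1.49 and 2.24, yet they lay 1.33 and 1.40 below the median of all genes, which that scaling moved by 2.73 and 3.57 on the log2 scale.

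Insr, the insulin receptor, kept the embryonic level on average and split the HO libraries in the opposite way to Igf1. It was 5.52, 4.81 and 5.54 FPKM in atria and 6.09, 5.22 and 5.77 FPKM in ventricles. In atrium-like parts it was 7.31, 4.25 and 8.80 FPKM, and in ventricle-like parts 3.37, 3.38 and 7.51 FPKM. Atrium-like 1, atrium-like 3 and ventricle-like 3 lay above all embryonic libraries and the other 3 HO libraries below them, and all neighbouring groups overlapped. The log2 fold change was 0.56 (SE 0.326, adjusted p = 0.229) for atrium-like parts against atria and -0.35 (SE 0.34, adjusted p = 0.46) for ventricle-like parts against ventricles. The ratio of Insr to Igf1r in FPKM was 0.825 to 1.11 in embryonic libraries and above that in every HO library, at 8.98, 1.60 and 2.08 in atrium-like and 1.94, 1.23 and 2.14 in ventricle-like parts. Its highest value came from atrium-like 1, where Igf1r was lowest.

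**Figure D1:**
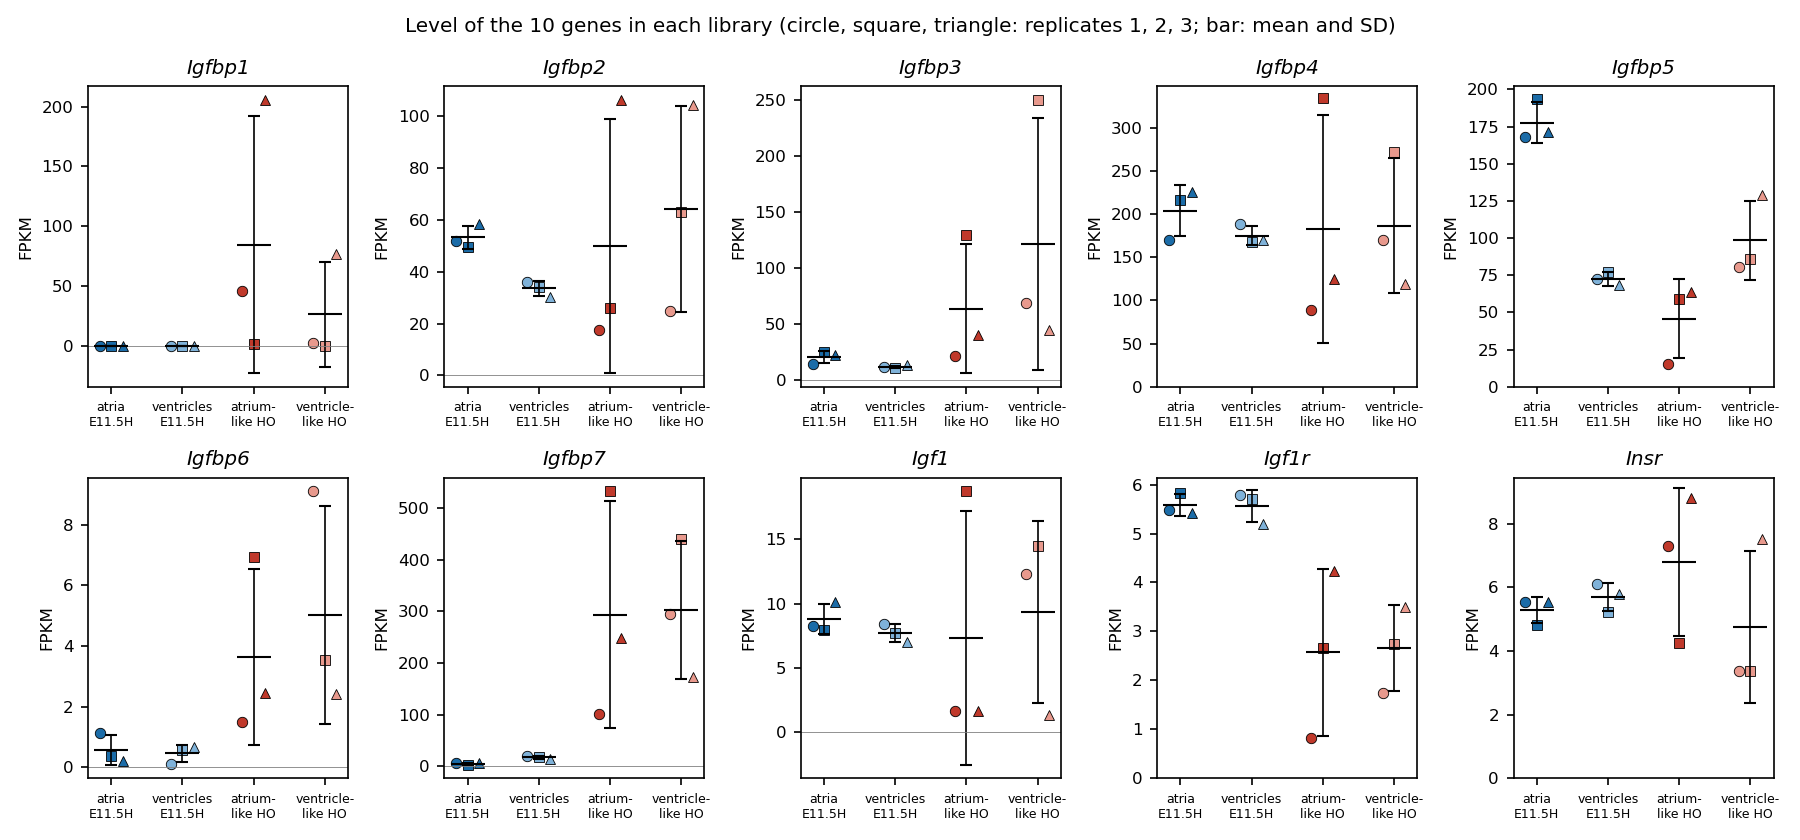
FPKM of the 10 genes (y axis, linear) in the 4 groups (x axis), with circle, square and triangle for replicates 1, 2 and 3 and a bar for the mean and SD of 3 libraries. Embryonic libraries lie close together, whereas HO libraries spread, with Igf1 between 1.31 and 18.7 FPKM and Igfbp1 between 0.161 and 206 FPKM.

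Among the binding proteins, Igfbp4 led in the embryo and Igfbp7 led in HOs. Igfbp4 made 41.4 to 57.4% of the summed FPKM of Igfbp1 to Igfbp7 in the 6 embryonic libraries, and it ranked first in each. Igfbp7 made 0.689 to 6.01% of that sum in E11.5H and 26.5 to 48.9% in HOs, where it ranked first in each library. The sum itself was 296 to 488 FPKM in E11.5H. In HOs it was 292 FPKM in atrium-like 1, just under the embryonic range, and 649 to 1115 FPKM in the other 5 libraries.

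**Figure D2:**
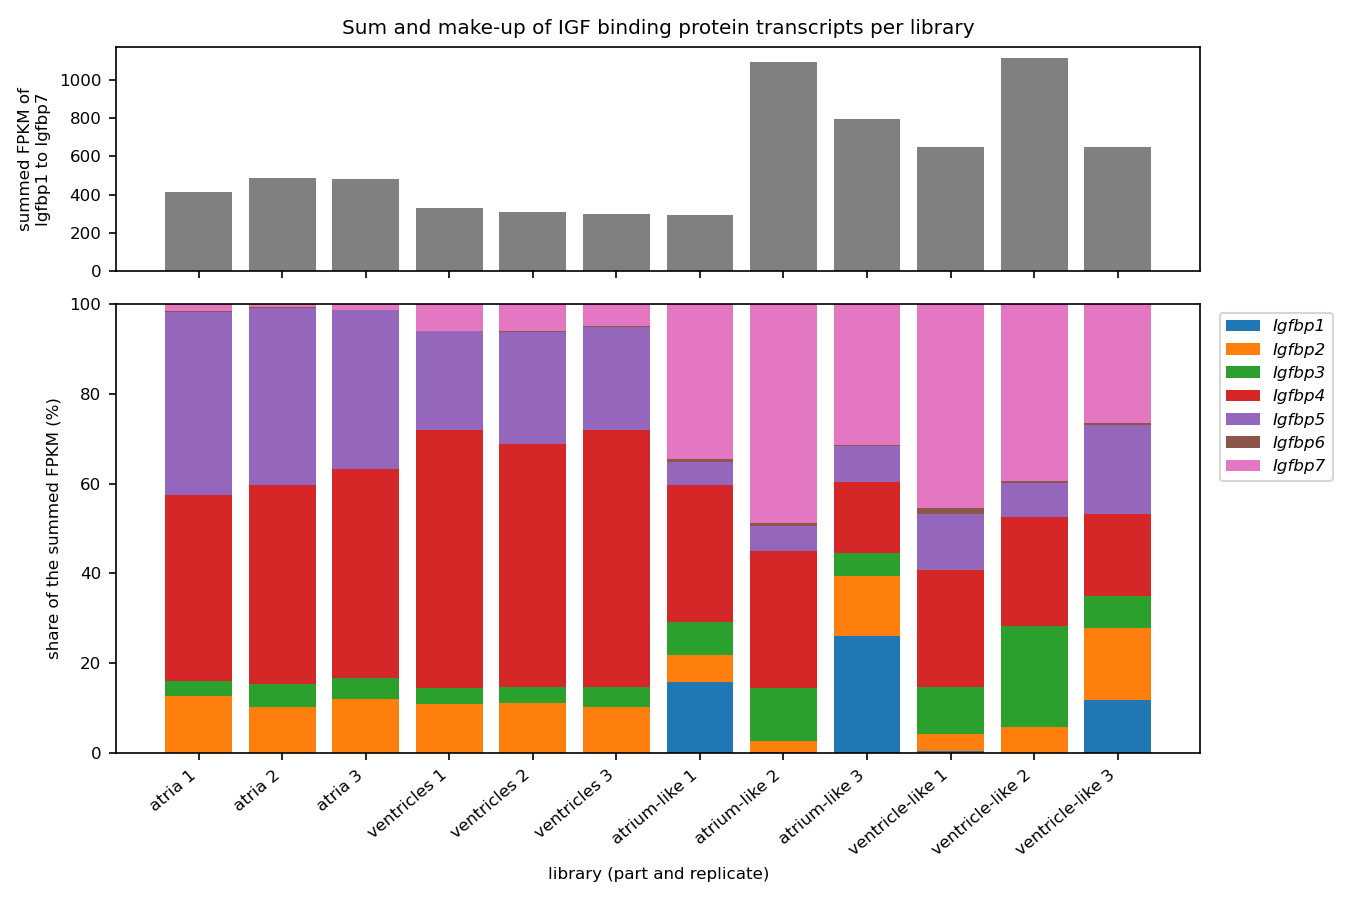
Summed FPKM of Igfbp1 to Igfbp7 (top, y axis) and the share of each gene in the sum (bottom, percent) for the 12 libraries (x axis). The Igfbp7 share is 0.689 to 6.01% in embryonic libraries and 26.5 to 48.9% in HO libraries, and Igfbp1 is visible in 3 HO libraries, at 15.8, 26.0 and 11.9%.

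Igfbp4, mostly an inhibitor that is removed by the protease Pappa, had similar group means. It was 171, 216 and 226 FPKM in atria, 188, 167 and 170 FPKM in ventricles, 89.1, 334 and 125 FPKM in atrium-like parts and 170, 272 and 119 FPKM in ventricle-like parts. All neighbouring groups overlapped, and no comparison called it. The interval of its log2 difference was narrowest between the embryonic chambers (-0.06 to 0.36) and reached from -1.06 to 0.95 for atrium-like parts against atria.

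Igfbp5, which binds matrix and is found in muscle and connective tissue, was the only member whose neighbouring groups did not overlap in FPKM. It was 168, 193 and 171 FPKM in atria and 72.5, 77.0 and 68.2 FPKM in ventricles of E11.5H. In HOs it was 15.4, 58.9 and 63.6 FPKM in atrium-like parts and 80.9, 85.7 and 129 FPKM in ventricle-like parts. From the highest mean to the lowest, the order was atria, ventricle-like parts, ventricles and atrium-like parts, and no 2 neighbours overlapped. Ventricle-like parts against ventricles gave a log2 fold change of 0.35 (SE 0.196, adjusted p = 0.22 in edgeR), which was not called. Between those 2 groups, 50.7% of all genes tested did not overlap either. Atria exceeded ventricles by a log2 fold change of 1.22 (SE 0.0665, adjusted p = 2.37e-06), and in HOs the atrium-like parts were the lower ones, by -0.98 (SE 0.485, adjusted p = 0.75), which missed the threshold. The sign in HOs turned under scaling to cardiomyocyte genes, to 0.25, where the median of all genes was 1.39. The atria also had higher epicardium (5.80 to 5.95 against 4.77 to 5.02), smooth muscle (7.27 to 7.33 against 6.30 to 6.63) and macrophage lists (2.51 to 3.19 against 1.87 to 2.24, all as mean log2(CPM + 1)), whose part was not tested. Against its embryonic counterpart, the atrium-like part had less Igfbp5 (-1.83, SE 0.458, adjusted p = 0.0272), a value that under the same scaling was 1.43 and lay 2.20 below the median of all genes.

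Igfbp2, a binding protein of fetal tissues and the neighbour of Igfbp5, was higher in atria than in ventricles. It was 52.0, 49.7 and 58.3 FPKM in atria and 36.0, 34.3 and 30.4 FPKM in ventricles, which did not overlap. The log2 fold change of 0.60 (SE 0.0926, adjusted p = 0.00193) was under the limit of 1. In HOs it was 17.5, 25.9 and 106 FPKM in atrium-like and 24.9, 63.2 and 104 FPKM in ventricle-like parts, and atrium-like 3, ventricle-like 2 and ventricle-like 3 were above all embryonic libraries. Ventricle-like parts against ventricles gave 0.84 (SE 0.469, adjusted p = 0.221), and without ventricle-like 1 it was 1.22 (adjusted p = 0.0352).

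Igfbp3, the main carrier in blood, was also higher in atria (14.1, 24.9 and 22.6 FPKM) than in ventricles (11.4, 11.02 and 13.02 FPKM), by a log2 fold change of 0.72 (SE 0.184, adjusted p = 0.0274), under the limit of 1. It was 21.5, 130 and 40.5 FPKM in atrium-like parts and 68.5, 251 and 45.0 FPKM in ventricle-like parts, with the highest level in replicate 2 of each. Ventricle-like parts exceeded ventricles without overlap, by 3.25 (SE 0.665, adjusted p = 0.017). Atrium-like 1 overlapped the atria, and the log2 fold change of 1.72 (SE 0.589) had an adjusted p of 0.0678 with it and 0.0242 without it. Without atrium-like 2 the value fell to 0.82 and was not called.

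Igfbp6, which prefers Igf2 over Igf1, was scarce in the embryo. It was 1.12, 0.369 and 0.215 FPKM in atria and 0.121, 0.577 and 0.657 FPKM in ventricles. Every HO library was higher, with 1.505, 6.92 and 2.45 FPKM in atrium-like parts and 9.10, 3.54 and 2.42 FPKM in ventricle-like parts. The log2 fold change was 3.37 (SE 0.874, adjusted p = 0.0332) for ventricle-like parts against ventricles and 2.75 (SE 0.87, adjusted p = 0.0543) for atrium-like parts against atria. It was the lowest of the 7 binding proteins in 3 of the 6 HO libraries, and Igfbp1 was lower in the other 3 and in all 6 embryonic libraries.

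Igfbp7 showed the greatest rise in HOs of the members with more than trace levels in the embryo. It was 5.90, 3.36 and 5.70 FPKM in atria and 19.7, 18.6 and 14.1 FPKM in ventricles. In HOs it was 101, 533 and 248 FPKM in atrium-like parts and 295, 440 and 172 FPKM in ventricle-like parts, each far above the embryonic range. The embryonic chambers did not overlap (log2 fold change -1.87, SE 0.234, adjusted p = 5.82e-04), while the HO parts did (0.05, SE 0.563, adjusted p = 0.984). Atrium-like parts exceeded atria by 5.97 (SE 0.64, adjusted p = 0.00289), and ventricle-like parts exceeded ventricles by 4.02 (SE 0.368, adjusted p = 0.00198). Both calls were kept when any 1 of the 6 libraries in the comparison was left out. Like Igfbp7, the hepatocyte and visceral endoderm list (1.42 to 9.25 against 0.399 to 0.853, as mean log2(CPM + 1)) and the gut epithelium list (2.84 to 8.31 against 0.901 to 1.08) stood above the embryonic range in all 6 HO libraries. Lists above it in 4 of 6 HO libraries each were fibroblast and mesenchyme (5.99 to 8.69 against 6.28 to 6.77 in E11.5H) and macrophage (2.49 to 5.89 against 1.87 to 3.19), whereas the endothelial list was lower in all (1.57 to 4.08 against 5.35 to 5.64). Between embryonic chambers the cardiomyocyte list was higher in ventricles (10.5 to 10.6 against 9.99 to 10.2). Among HO libraries, Igfbp7 was lowest in atrium-like 1 (101 FPKM), where the hepatocyte and visceral endoderm list was highest (9.25). In ventricle-like 2, where that list was lowest (1.42), Igfbp7 was 440 FPKM. The part of these lists in the Igfbp7 level was not tested.

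Igfbp1 was at trace in the embryo and varied 1277-fold in FPKM among HO libraries. The embryonic libraries held 1, 1 and 0 fragments in atria and 2, 0 and 0 in ventricles, at or below the limit that a count of 0 allows. Atrium-like parts held 2013, 98 and 10178 fragments (46.3, 1.90 and 206 FPKM), and ventricle-like parts 123, 8 and 3791 fragments (2.47, 0.161 and 76.9 FPKM). Per library size, atrium-like parts held 6703-fold more fragments than atria (95% interval 1855 to 55353) and ventricle-like parts 1932-fold more than ventricles (534 to 15956), intervals that cover counting error only. Single libraries carried these ratios: atrium-like 3 gave 82.8% of the fragments of its group and ventricle-like 3 gave 96.7%. Against atria the gene passed the filter on low counts only through the atrium-like libraries, so its call there (adjusted p = 0.0112 in edgeR) adds nothing to these counts. Against ventricles it fell below the filter and had no test. Tests of that comparison in edgeR that did include it gave adjusted p values of 0.0442 without the filter and 0.014 without ventricle-like 2. Without 1 ventricle library they were 0.138 to 0.172. The ventricles were at trace, so these tests rest on the ventricle-like libraries and add nothing to the counts either. The HO parts overlapped, with a log2 fold change of 1.89 whose interval ran from -3.39 to 7.17. The hepatocyte and visceral endoderm list was highest in the 3 libraries with the most Igfbp1, and a list of 10 gut epithelium genes was too (8.31, 7.82 and 7.50 as mean log2(CPM + 1), against 6.25, 5.58 and 2.84 in the other 3). Of the 12 hepatocyte and visceral endoderm genes, only Fga and Hnf4a had no fragment in ventricle-like 2, the library with the least Igfbp1. Alb had none in ventricle-like 1, which held more Igfbp1 (123 fragments). Whether those cells account for the Igfbp1 level was not tested.

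Within HOs, Igf1, Insr and Igfbp1 divided the libraries into the same 2 sets, and so did Igfbp3, Igfbp4, Igfbp6 and Igfbp7 without overlap. Igfbp3, Igfbp4, Igfbp6 and Igfbp7 were higher in atrium-like 2, ventricle-like 1 and ventricle-like 2. The sets were read from these levels, and the share of all genes that separate them was not computed. The split is therefore not shown to be particular to these genes. Atrium-like 1, atrium-like 3 and ventricle-like 3 combined high Igfbp1 and Insr with low Igf1, and atrium-like 2, ventricle-like 1 and ventricle-like 2 combined the reverse with the higher fibroblast and mesenchyme list (8.69, 8.19 and 8.25 against 6.28, 7.18 and 5.99). The macrophage list was also higher in atrium-like 2, ventricle-like 1 and ventricle-like 2 (5.89, 5.15 and 5.62 against 4.23, 2.49 and 2.98). So were the smooth muscle (6.24, 6.45 and 6.35 against 4.91, 4.98 and 5.27) and endothelial lists (4.08, 2.03 and 3.66 against 1.59, 1.98 and 1.57). Over the 6 HO libraries, Pearson's r of log2(CPM + 1) was 0.972 between Igfbp1 and Insr, -0.937 between Igf1 and Insr and -0.941 between Igf1 and Igfbp1. Among the binding proteins it was 0.958 between Igfbp4 and Igfbp7 and 0.926 between Igfbp3 and Igfbp4. The chromosome 11 neighbours Igfbp1 and Igfbp3 had an r of -0.845, and the chromosome 1 neighbours Igfbp2 and Igfbp5 one of 0.673. These are descriptions over 6 libraries that share their cell mixtures, and the part of those mixtures was not tested. Each set held libraries of both parts. The libraries numbered 2 fell into one set and those numbered 3 into the other, and number 1 was split. Igfbp2, Igfbp5 and Igf1r did not follow these sets.

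**Figure D3:**
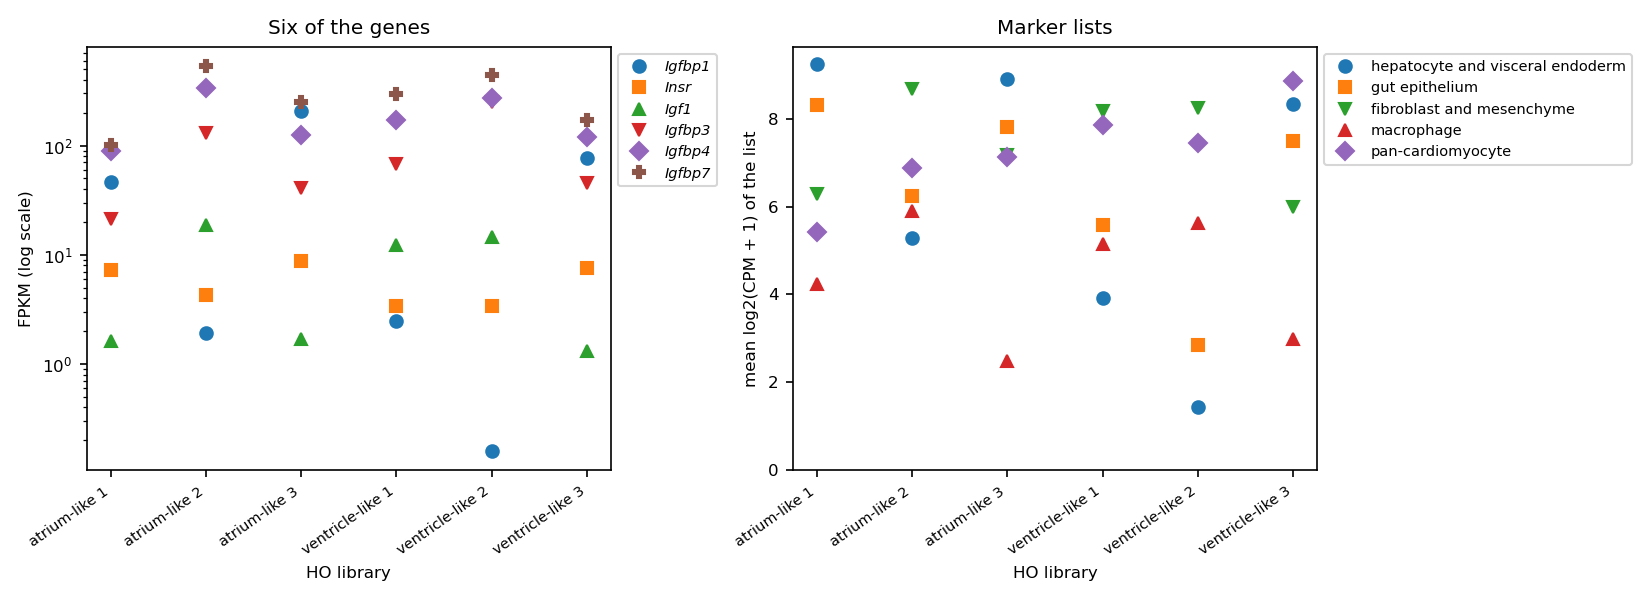
The 6 HO libraries (x axis) with FPKM of 6 members on a log scale (left) and the mean log2(CPM + 1) of 5 marker lists (right). Igfbp1 and Insr are high and Igf1 is low in atrium-like 1, atrium-like 3 and ventricle-like 3, where the hepatocyte and visceral endoderm list stands at 9.25, 8.91 and 8.33.

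Atria and ventricles of E11.5H were compared to ask which members mark a chamber of the embryonic heart. Igfbp5 was higher in atria and Igfbp7 was higher in ventricles. These were 2 of the 9 members tested (Igfbp1 fell below the filter on low counts), where a call in edgeR needed an adjusted p below 0.05 together with a log2 fold change beyond 1 in either direction. Of all 14536 genes 4.9% were called, 2.92% higher and 1.97% lower in atria. Igfbp2 and Igfbp3 passed the adjusted p but not the fold limit. The libraries of the 2 chambers did not overlap for these 4 members, against 33.1% of all genes. The median log2 fold change of the 9 members was 0.15 and that of all genes 0.01. When all 12 libraries shared 1 estimate of the spread, the adjusted p became 0.286 for Igfbp5 and 0.165 for Igfbp7.

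Atrium-like and ventricle-like parts were compared to ask whether HO parts differ as the chambers do. No member was called, of 10 tested, where 0% of 15703 genes were called in edgeR. At an unadjusted p under 0.05 there were 889 genes (5.66%) and 0 members, and DESeq2 called 56 genes and 0 members. Igfbp5 was the only member whose HO parts did not overlap, against 13.3% of all genes. The intervals of the other members were wide, for example -1.32 to 1.42 for Igfbp7 and -0.42 to 1.88 for Insr on the log2 scale.

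The difference between the chamber contrast of HOs and that of E11.5H was tested over all 12 libraries. No member passed, where 0.152% of 16494 genes did (0.0243% higher and 0.127% lower). At an unadjusted p under 0.05 there were 2 members, Igfbp5 and Igfbp7, of 10, and 11.7% of all genes. For Igfbp5 the contrast in HOs was lower by -2.20 on the log2 scale (SE 0.538, interval -3.39 to -1.005, adjusted p = 0.201 in edgeR), and DESeq2 gave it an adjusted p of 0.00418. For Igfbp7 the contrast was 1.94 higher (SE 0.67, interval 0.46 to 3.43, adjusted p = 0.33).

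Atrium-like parts were compared with atria, and ventricle-like parts with ventricles, to ask how HO parts differ from the chamber they are named after. Atrium-like parts exceeded atria in Igfbp1 and Igfbp7 and had less Igfbp5. These were 3 of 10 members, where 24.8% of 15418 genes were called (16% higher and 8.81% lower), so the share of members was near that of all genes. Igfbp1 was among the 3 only through its HO libraries. Libraries did not overlap for 5 members (Igfbp1, Igfbp5, Igfbp6, Igfbp7 and Igf1r), against 54.4% of all genes. In ventricle-like parts Igfbp3, Igfbp6 and Igfbp7 were higher and Igf1r was lower than in ventricles, 4 of 9 members where 18.9% of 15094 genes were called (11.6% higher and 7.35% lower). Of the 9 tested, libraries did not overlap for Igfbp3, Igfbp5, Igfbp6, Igfbp7 and Igf1r, against 50.7% of all genes tested. They did not overlap for Igfbp1 either, which had no test there. The median log2 fold change of the members was 0.32 and 0.35 in the 2 comparisons, and that of all genes 0.06 and 0.09. Leaving out any 1 of the 3 atria libraries ended the calls of Igfbp1 (adjusted p 0.0547 to 0.0578) and Igfbp5 (0.0803 to 0.0868), and leaving out any 1 of the 3 ventricle libraries ended those of Igfbp3 (0.0739 to 0.0839), Igfbp6 (0.0907 to 0.115) and Igf1r (0.0703 to 0.0789). Without ventricle-like 1 the calls of Igfbp6 (adjusted p 0.0899) and Igf1r (log2 fold change -0.94) ended too.

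**Figure D4:**
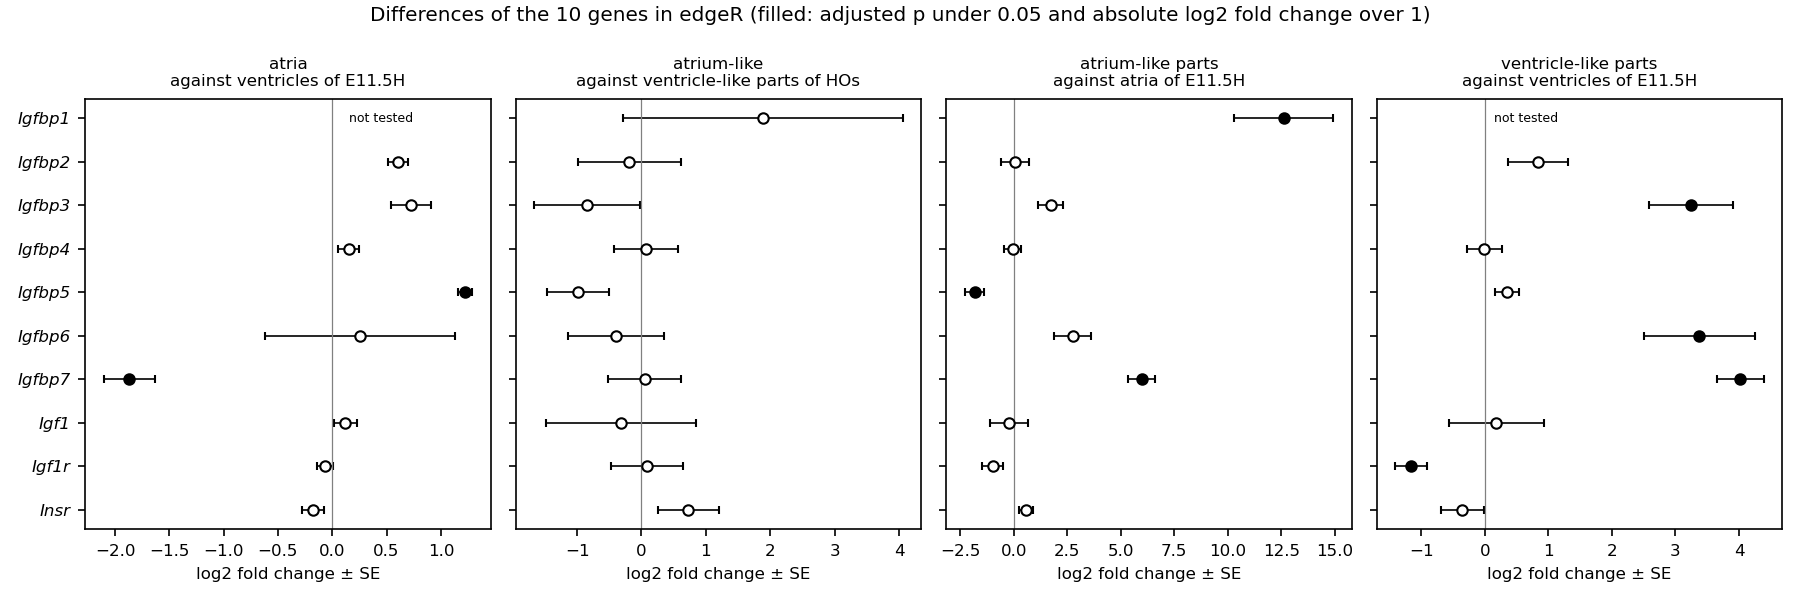
Log2 fold change with SE (x axis, different ranges) of the 10 genes (y axis) in 4 comparisons by edgeR, with filled points for called genes. Igfbp7 is filled in 3 comparisons, at -1.87, 5.97 and 4.02, and no point is filled between HO parts.

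Other genes of the pathway are given from 5 lists with 57 genes. The list of other ligands and receptors (Igf2, Ins1, Ins2, Igf2r, Insrr) held 2 abundant genes, Igf2 and Igf2r. Igf2r, which clears Igf2 to the lysosome, was 82.9 to 127 FPKM in E11.5H and 11.6 to 29.7 FPKM in HOs. It fell by 2.15 (SE 0.364, adjusted p = 0.00894) in atrium-like parts and by 2.44 (SE 0.196, adjusted p = 0.0015) in ventricle-like parts on the log2 scale, against their chambers. Under scaling to cardiomyocyte genes these values were 1.26 and 0.18, which lay 2.37 and 2.64 below the median of all genes. Igf2r overlaps the antisense gene Airn, and without a stated strand setting their reads cannot be told apart. Igf2 fell by 1.0101 in ventricle-like parts (SE 0.138, adjusted p = 0.00532), just past the fold limit (-0.995 with RLE size factors), and its value for atrium-like parts was -0.40 (SE 0.306, adjusted p = 0.347). Ins1 had no fragment in any library and Ins2 at most 4.

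The list of carriers, proteases and protease inhibitors had calls in 1 direction only in each comparison with the embryo. Of 7 listed and tested in atrium-like parts against atria, 4 were called higher (Igfals, Pappa, Htra1 and Stc2) and 0 lower, and in ventricle-like parts against ventricles 2 of 6 (Htra1 and Stc2) and 0 lower, where 16% and 11.6% of all genes were called higher. Adam12, another protease of the list, was at 0.269, 1.08 and 0.818 FPKM in atrium-like 1, atrium-like 3 and ventricle-like 3, below its embryonic range of 1.61 to 5.55 FPKM, and at 9.29 to 14.2 FPKM in the other 3 HO libraries. The median log2 fold change of the list was 2.77 and 2.05, against 0.06 and 0.09 for all genes. Htra1, a protease that cuts binding proteins, was 6.58, 5.52 and 6.22 FPKM in atria, 18.0, 17.9 and 22.8 FPKM in ventricles, 23.7, 89.9 and 58.8 FPKM in atrium-like and 173, 105 and 69.7 FPKM in ventricle-like parts. It was higher in every HO library than in any embryonic one. Igfals, which holds Igfbp3 or Igfbp5 and a ligand in a complex in blood, was highest in the same 3 HO libraries as Igfbp1, with 578, 58 and 486 fragments in atrium-like and 10, 4 and 396 in ventricle-like parts. The embryonic libraries held 1, 0 and 0 and 3, 0 and 11. Against atria, Igfals passed the filter on low counts only through the atrium-like libraries, so its call there adds nothing to these counts. Between embryonic chambers, 3 of 5 tested (Htra1, Stc1 and Stc2) were called lower in atria and 0 higher, with a list median of -1.64. Of all genes, 1.97% were called lower there. Stc1 and Stc2 are inhibitors of the protease Pappa. In atrium-like parts Igfals lost its call without atria 1 and Pappa without any 1 atria library. In ventricle-like parts Stc2 lost its call without any 1 ventricle library and without ventricle-like 1. The call of Stc2 between embryonic chambers was lost whichever of the 6 libraries was left out.

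The genes that share the binding protein domain moved in both directions. Against atria, 6 of 10 tested were called higher and 2 lower in atrium-like parts, where 16% and 8.81% of all genes were. Against ventricles, 5 of 11 were called higher and 1 lower in ventricle-like parts, where 11.6% and 7.35% of all genes were. Ccn5 was among the 6 and passed the filter on low counts only through the atrium-like libraries (4, 0 and 9 fragments in atria). Igfbpl1 was among the 2 and passed it only through the atria. It was also the 1 called lower in ventricle-like parts (10, 80 and 8 fragments), where it passed only through the ventricles. Its calls thus add nothing to its levels. Ccn1, a matrix protein induced by growth factors, was 16.2 to 47.7 FPKM in E11.5H and 68.6 to 199 FPKM in HOs. Kazald1, Crim1, Htra1 and Htra3 were higher in both comparisons. Leaving out 1 of the 6 libraries ended the call of Kazald1 in 4 cases for atrium-like and 2 for ventricle-like parts, and those of Crim1 and Htra3 in 3 cases each for ventricle-like parts. Igfbpl1 went the other way, from 5.47 to 9.23 FPKM in E11.5H to 0, 0 and 0.0338 FPKM in atrium-like and 0.112, 0.897 and 0.0904 FPKM in ventricle-like parts. Between embryonic chambers Ccn4 was higher in atria (22.9, 25.1 and 25.3 against 7.72, 8.015 and 8.001 FPKM), and Ccn2 and Htra1 were lower. The call of Ccn2 was kept only when atria 1 was the library left out.

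In the chain below the receptors, calls were no more frequent than among all genes. Of 29 genes tested, 0 were called between embryonic chambers, where 4.9% of all genes were called. At an unadjusted p under 0.05 in edgeR there were 12, against 26.9% of all genes, and DESeq2 called 0. In atrium-like parts against atria, 2 were higher and 5 lower, where 24.8% of all genes were called. In ventricle-like parts against ventricles, where 18.9% of all genes were called, 1 was higher and 2 were lower. Grb10, an adaptor that damps both receptors, was 169 to 266 FPKM in E11.5H and 1.92 to 13 FPKM in HOs, and fell by 4.38 (SE 0.64) and 4.46 (SE 0.142) on the log2 scale. Irs1, the adaptor of both receptors, was 6.61 to 10.03 FPKM in E11.5H and 0.397 to 2.86 FPKM in HOs, and fell by 2.63 (SE 0.502) and 1.85 (SE 0.192). Its relative Irs2 was higher in every HO library (14.4 to 31.9 FPKM) than in any embryonic one (6.77 to 11.46 FPKM), and was called in atrium-like parts (2.11, SE 0.27, adjusted p = 0.00439) but was under the fold limit in ventricle-like parts (0.85, SE 0.2, adjusted p = 0.0253). Scaled to cardiomyocyte genes, Irs1 turned to 0.63 and 0.80, below the median of all genes, while Grb10 stayed lower at -1.20 and -1.75. Of the 3 proteins that bind Igf2 mRNA, Igf2bp1 was called lower in both comparisons and Igf2bp3 in ventricle-like parts, and under that scaling both turned positive (2.46, 1.10 and 1.28) and stayed below the median. The calls of Igf2bp1 in atrium-like and of Igf2bp3 in ventricle-like parts were lost in 5 of 6 cases when 1 library was left out. Between HO parts, 0 genes of the 5 lists were called in edgeR. At an unadjusted p under 0.05 there were Crim1, Esm1 and Pik3r3, where 5.66% of all genes passed, and DESeq2 called 1 gene, of the list that shares the domain.

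For each member, the 2 genes outside the set whose log2(CPM + 1) followed it most closely over the 12 libraries were found among 12068 genes, as a description of shared levels. Igfbp1 was followed by Hpx (r = 0.996) and Fgg (0.988), plasma proteins of the liver, and over the 6 HO libraries alone r was 0.991 and 0.978. Igfbp7 was followed by Egr1 (0.992) and Ndufa4l2 (0.984), with 0.869 and 0.826 within HOs. For Igf1 these were P3h3 (0.993), a collagen-modifying enzyme, and Sfpq (0.991), a nuclear RNA-binding protein. Igfbp4 went with Adamts10 (0.956) and Mfap2 (0.947), a pair of microfibril proteins, and Igfbp3 with Abca1 (0.985), a cholesterol exporter, and Ppp2r2b (0.981). Igfbp5 went with Nek7 (0.976) and Mief2 (0.955), Igfbp2 with Tmem9 (0.908) and Ogt (0.903), and Igfbp6 with Uhrf1bp1l (0.974) and Sp6 (0.964). The receptors had Tube1 (0.976) and Psmg2 (0.967) beside Igf1r, and Gigyf2 (0.95) and Ttc32 (0.949) beside Insr. Libraries of a group share their mixture of cells, so the 12 points are not independent.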

How the data were processed

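RNA-seq libraries of 12 samples (4 groups of 3) were used as deposited. The authors mapped reads with STAR to GRCm38 (mm10) and computed fragment numbers and FPKM per gene; tool versions, the counting tool, the annotation release and its strand setting are not given in the sources used here. The deposited table holds expected counts (23.8% of values were not whole) and FPKM for 26190 genes. Library totals were 23971258 to 30540993 fragments, which set the precision of low counts.

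Levels are the deposited FPKM. For tests, the deposited expected counts were rounded, genes were filtered by filterByExpr with a minimum count of 10, and edgeR 4.0.16 (R 4.3.3) fitted each pair of groups alone by its quasi-likelihood test with TMM scaling, and the interaction over all 12 libraries. All genes tested were adjusted together by Benjamini-Hochberg, and a call needed an adjusted p below 0.05 together with a log2 fold change beyond 1 in either direction. SE and 95% intervals are of the log2 fold change. Alternatives were RLE size factors, DESeq2 1.42.0, limma 3.58.1 (voom, and log2(FPKM + 1)), no filter, no fold limit, 1 fit over all libraries, a replicate block, scaling to 16 cardiomyocyte genes, library sizes without hemoglobin genes and leaving out each library. The steps were tested on simulated data with a log2 change of 2 in 200 genes. Of these, 99.5% were recovered between embryonic chambers, 25.5% between HO parts and 33.5% for the interaction. The share was 74% for atrium-like parts against atria and 76% for ventricle-like parts against ventricles. Most changes of that size were thus missed between HO parts and in the interaction. Ratios of trace counts are of summed fragments per library total, with exact 95% intervals.

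Named are all members, genes of the 5 pathway lists (counts, with values of called genes or the largest) and the 2 genes most correlated with each member, of a mean of at least 5 CPM. Members and lists were chosen with earlier results of these data known. Promoters are RefSeq sequences of GRCm38.p6. By the methods, HOs in triplicate were dissected to both parts, and the labels do not state whether equal replicate numbers mean the same HOs. The correlation of deviations from group means between same-numbered HO parts was 0.646 for number 2, 0.429 for number 3 and -0.092 for number 1. The main tests used no block and so ignore any such pairing, and a replicate block was among the alternatives.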

Additional observations from a re-analysis of the deposited data

Results flagged for a closer look

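The chamber difference of Igfbp5 ran in opposite directions in the 2 tissues, with no overlap between the libraries of the parts in either. It was 1.22 (SE 0.0665, adjusted p = 2.37e-06 in edgeR) in E11.5H, higher in all 3 atria than in all 3 ventricles, and -0.98 (SE 0.485, adjusted p = 0.75) in HOs, lower in all 3 atrium-like than in all 3 ventricle-like parts, on the log2 scale. The difference between these 2 values was -2.20 (SE 0.538) and missed the threshold after adjustment over all genes in edgeR (adjusted p = 0.201). DESeq2 gave -2.17 with an adjusted p of 0.00418, and edgeR without atrium-like 1, the library with the lowest Igfbp5, gave -1.81 with 0.0484. Leaving out any of the other 11 libraries left it uncalled. Scaled to cardiomyocyte genes, the HO value turned to 0.25, the same sign as in E11.5H, and the difference was -1.54 (adjusted p = 0.27 in edgeR). That scaling put the median of all genes at 1.39 between HO parts and at 0.58 between embryonic chambers. Relative to these medians, Igfbp5 was still lower by 1.14 in atrium-like parts and higher by 1.21 in atria. The pan-cardiomyocyte list was also lower in each atrium-like part (5.42, 6.89 and 7.14 as mean log2(CPM + 1)) than in each ventricle-like part (7.86, 7.45 and 8.87), and its part in the Igfbp5 difference was not tested. Groups of 3 libraries were too small to look for single outlying libraries.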

How the results depend on the processing

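The limits are these: the HO libraries differ widely in their marker lists, and 3 libraries a group leave wide intervals there. Leaving hemoglobin genes out of library sizes changed no call of a member, and dropping the filter on low counts added Igfbp1 in ventricle-like parts (5 members in place of 4). The cause of the changes below was not tested, except that fewer libraries or another limit change the counts by construction.

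The number of members called between embryonic chambers, 2 in the main analysis, was 0 with all 12 libraries in 1 fit, 4 without a fold limit and 4 with scaling to cardiomyocyte genes. That scaling gave 1 member in place of 0 between HO parts, 10 in place of 3 for atrium-like parts against atria and 9 in place of 4 for ventricle-like parts against ventricles. DESeq2 gave 5 in place of 3 for atrium-like parts and 1 in place of 0 for the interaction. Leaving out 1 library gave 2 between embryonic chambers each time, 0 between HO parts, 1 to 5 for atrium-like parts, 1 to 5 for ventricle-like parts and 0 to 1 for the interaction (1 without atrium-like 1). Over all genes, 712 calls between embryonic chambers became 55 with all libraries in 1 fit, 386 with limma on log2(FPKM + 1), 1982 without a fold limit and 1890 under cardiomyocyte scaling (1716 higher and 174 lower, against 425 and 287). Between HO parts 0 calls became 56 with DESeq2 and 1156 under that scaling (1150 higher, 6 lower). It gave 14010 in place of 3821 for atrium-like parts (13888 higher and 122 lower against 2462 and 1359) and 13552 in place of 2859 for ventricle-like parts (13470 and 82 against 1749 and 1110), where no fold limit gave 4462. Leaving out 1 library gave 1662 to 5495 for atrium-like and 1116 to 3725 for ventricle-like parts; the lowest were without an embryonic library. For the interaction 25 calls became 444 with DESeq2, 12 with voom, 89 with limma on log2(FPKM + 1), 8 under cardiomyocyte scaling and 2 to 216 without 1 library.

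Voom ended the calls of Igfbp1 in atrium-like parts (adjusted p 0.408) and of Igfbp6 in ventricle-like parts (0.0717). All 12 libraries in 1 fit ended that of Igf1r in ventricle-like parts (0.072), and limma on log2(FPKM + 1) put its log2 fold change at -0.87, under the limit.

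Replicate numbers are shared across groups, but same-numbered libraries did not deviate together throughout: the correlation of their deviations ran from 0.0268 to 0.094 between embryonic chambers and from -0.092 to 0.646 between HO parts, and atrium-like 1 was closest to ventricle-like 3. With a replicate block the members called were 2, 0, 3, 3 and 0 in the order used above; the call lost was Igfbp6 in ventricle-like parts (adjusted p 0.116), and interaction calls over all genes were 5 in place of 25. The block reversed uncalled values between HO parts for Igfbp4 (-0.00663), Igfbp7 (-0.0577) and Igf1r (-0.11), for Igfbp2 in atrium-like parts (-0.40) and for Igf1 in ventricle-like parts (-0.31).

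Other signs that turned, all in log2 fold change, were of values near 0 or under cardiomyocyte scaling. Between embryonic chambers Igf1r became 0.0036 with limma on log2(FPKM + 1), and Igf1r and Insr 0.50 and 0.38 with the scaling. Between HO parts Igfbp4, Igfbp7 and Igf1r became -0.00271, -0.0607 and -0.0364 with voom and -0.18, -0.25 and -0.14 with limma on log2(FPKM + 1), and the scaling gave Igfbp2 1.03, Igfbp3 0.0525, Igfbp5 0.25, Igfbp6 0.80 and Igf1 0.59. In atrium-like parts Igfbp2 became -0.35 with voom and -0.52 with limma on log2(FPKM + 1), and the scaling gave Igfbp4 3.36, Igfbp5 1.43, Igf1 3.09, Igf1r 2.24, Igf2r 1.26, Ccn4 1.51, Irs1 0.63, Grb14 1.32, Pik3r3 1.56, Tsc2 2.57 and Igf2bp1 2.46. In ventricle-like parts Igfbp4 became 0.0023 with RLE size factors, 0.0023 with DESeq2, 0.0119 with limma on log2(FPKM + 1) and 0.0040 with all libraries in 1 fit, Igf1 became -0.41 with voom and -0.16 with limma on log2(FPKM + 1), and the scaling gave Igfbp4 2.88, Igf1r 1.49, Insr 2.16, Igf2 1.66, Igf2r 0.18, Irs1 0.80, Igf2bp1 1.10 and Igf2bp3 1.28. For the interaction Igf1r became -0.14 with limma on log2(FPKM + 1), and the scaling gave Igfbp4 0.47 and Igfbp6 0.0258.

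Leaving out 1 library turned the sign of Igfbp6 between embryonic chambers (-0.72 to 0.66). Between HO parts it did so for Igfbp2 (-1.40 to 0.36), Igfbp3 (-1.71 to 0.22), Igfbp4 (-0.54 to 0.42), Igfbp6 (-1.09 to 0.40), Igfbp7 (-0.55 to 0.42), Igf1 (-2.22 to 0.14) and Igf1r (-0.53 to 0.46). In atrium-like parts it did so for Igfbp2 (-1.16 to 0.44), Igfbp4 (-0.69 to 0.20) and Igf1 (-2.15 to 0.21), and in ventricle-like parts for Igfbp4 (-0.35 to 0.20) and Igf1 (-0.25 to 0.66). In the interaction it did so for Igfbp1 (-0.73 to 6.34), Igfbp4 (-0.67 to 0.27), Igfbp6 (-1.34 to 0.35), Igf1 (-2.32 to 0.0426) and Igf1r (-0.44 to 0.56).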
